A study of Mus musculus with 16 samples.

Results

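The subject is prostate tissue of treated mutant mice set against that of untreated wild type mice. It was chosen by sample group and not by any measured value, and it uses 8 of the 16 samples of the series. The treated mutant group held 5 libraries from mice homozygous mutant (-/-) for 1 gene that had received finasteride. The untreated wild type group held 3 libraries from +/+ mice that had received vehicle. A further 3 libraries of -/- mice on vehicle, called the untreated mutant, define which genes the mutation changed, and the remaining 5 libraries of +/+ mice on finasteride enter only the estimate of spread and the mean level that decides which genes were tested. All mice were 12 months old, on the background given as hybrid 129/SvImJ and C57Bl/6J, so age and strain were shared by every group. The labels name the tissue as prostate and give neither lobes, dose and length of treatment nor whether each library is a separate animal. Of the 29535 genes in the deposited table, 16506 were tested, those whose mean log2 value over the 16 libraries corresponded to an unlogged level of at least about 10. Slc3a1, with a mean of 3.3196, lay just below that limit, and Gm16325, with 3.3206, just above it.

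Finasteride blocks the 5-alpha-reductases, which turn testosterone into dihydrotestosterone, the main androgen of the prostate. Luminal cells of the prostate secrete proteins such as probasin under the control of androgen, while cells near the urethra, the proximal luminal cells, depend on it less. The question put to the data was which genes changed by the mutation stood, after finasteride, at the wild type vehicle level, short of it or beyond it. Each gene was therefore read in 3 comparisons of 1 fit: treated mutant minus untreated wild type, untreated mutant minus untreated wild type (the mutation on vehicle), and treated minus untreated mutant (finasteride in the mutant). A gene was called where limma's adjusted p was under 0.05. Values are deposited log2 levels, and differences are log2 differences ± SE from that fit.

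The treated mutant did not sit where the untreated wild type sat. On the principal components of the 11 libraries of these 3 groups, the wild type libraries lay between -4.09 and 0.31 on the first component, the untreated mutant between -73.2 and -67.6, and 4 treated mutant libraries between 41.8 and 62.5. Library 2 of the treated mutant stood apart at 3.25. The second component held wild type (55.9 to 62.4) apart from the untreated mutant (-24.1 to -19.8) and the treated mutant (-34.8 to -14.9).

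**Figure D1:**
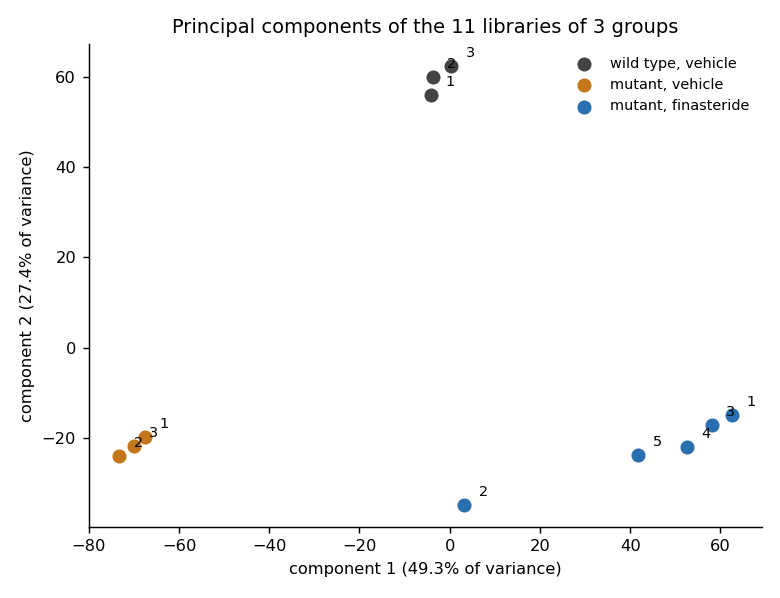
Principal components of the 11 libraries over all tested genes; each point is a library, its number is the replicate, the x axis is component 1 (49.3% of variance) and the y axis component 2 (27.4%). Wild type on vehicle lies at the top, the untreated mutant at the lower left and 4 of 5 treated mutant libraries at the lower right, with library 2 of the treated mutant near 0 on component 1.

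Library 2 of the treated mutant stood apart from its group, while 5 libraries lay close to mixtures of others of their own groups. Library 2 of the treated mutant had lower summed levels of genes of neighbouring organs than libraries 1, 3, 4 and 5. The summed level of 9 seminal vesicle genes was 16.7 in library 2 against 20.5 to 21.5 in the others of its group, and the untreated wild type libraries stood at 21.8, 9.91 and 20.4. The summed level of 13 epididymis and vas deferens genes was 11.1 in library 2 against 14.9 to 15.9 in the others, and untreated wild type stood at 9.95 to 11.8. Crisp1, a secreted protein of the epididymis, was at 14.30, 4.54, 14.07, 13.69 and 13.27 in the treated mutant, and Akr1b7, an aldo-keto reductase of the vas deferens, at 15.23, 5.39, 15.06, 14.65 and 14.09. Not every gene of these lists fell so far. Defb42 of the epididymis list was at 11.86, 10.75, 11.82, 11.59 and 11.41. Sva, a seminal vesicle gene, was at 8.11, 9.51, 8.69, 8.81 and 9.24, with library 2 the highest. In addition, 5 libraries, of which 1 is untreated wild type, 1 untreated mutant and 2 treated mutant (libraries 3 and 4), lay within a residual SD of 0.0797 to 0.0993 log2 units of a mixture of 2 others of their group. Many counts, though not all, are therefore given also without these 5 libraries. Some are given with library 2 as the only treated mutant library, an alternative chosen after seeing the data. In it library 2 is assumed to vary like the other groups.

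**Figure D2:**
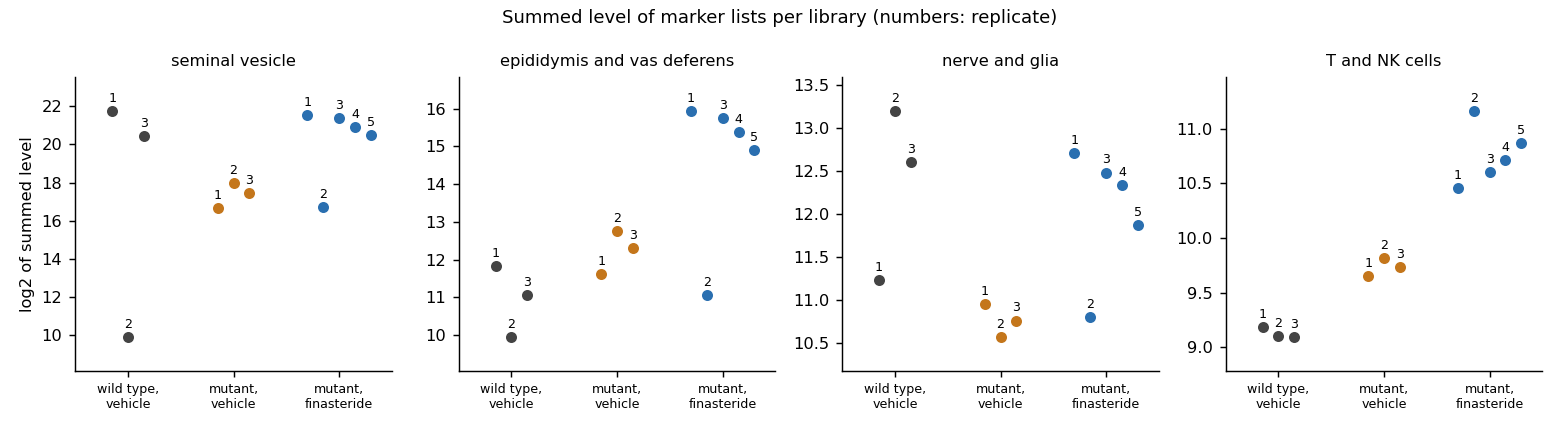
Summed level (log2 of summed unlogged values, y axis) of 4 marker lists in each library of 3 groups (x axis), with the replicate number above each point. Library 2 of the treated mutant is low for seminal vesicle (16.7), epididymis (11.1) and nerve genes (10.8), while every treated mutant library lies above every other library shown for T and NK cell genes.

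Between treated mutant and untreated wild type, 5923 genes (35.9%) were called, 2895 higher (17.5%) and 3028 lower (18.3%) in the treated mutant. The groups did not overlap for 6544 genes (39.6%). The median difference over all tested genes was 0.0068. By more than 1 log2 unit, 918 called genes were higher and 476 lower. Without the mixture-like libraries 2186 genes were called, 1072 higher (6.49%) and 1114 lower (6.75%), and 2185 of them had been called with the same sign in the full fit. These shares over all genes fell too, so a smaller count for a list in this fit need not be particular to that list. With library 2 alone 5181 genes were called, 2318 higher (14.0%) and 2863 lower (17.3%). Of the 5923 called genes, 5595 had library 2 outside the range of the wild type libraries on the same side as the call. Library 2 took part in making these calls, so this count is in part built in.

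On vehicle the mutation changed 5300 genes (32.1%), 2408 higher and 2892 lower (17.5%), and finasteride changed 7996 genes in the mutant (48.4%), 4236 of them higher (25.7%). After finasteride, 2422 of the 5300 genes (45.7%) were back at the wild type level, meaning that the drug moved them and the treated mutant was no longer called against untreated wild type. A missing call does not show equal levels, and for 1948 of these genes the 95% interval of the difference lay within 1 log2 unit of 0. A further 408 genes (7.70%) moved back but stopped short, and 1197 (22.6%) were short of the wild type level with no call for the drug. Beyond the wild type level, on its other side, were 443 genes (8.36%), and 318 (6.00%) were further away than before treatment. The remaining 512 genes (9.66%) were called neither against wild type nor for the drug. The treated mutant also differed from untreated wild type at 3557 genes that were not called for the mutation on vehicle, 1696 higher and 1861 lower. These are termed reached only with the drug. Here too a missing call does not show equal levels, and 37 of them differed by over 1 log2 unit on vehicle.

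Of the 2892 genes that the mutation lowered 1528 (52.8%) were back at the wild type level, and of the 2408 that it raised 894 (37.1%). Short of the level and not moved were 19.1% of the lowered and 26.8% of the raised genes. These comparisons share the wild type vehicle and the untreated mutant libraries, so the split into classes is a count and carries no test. Without the mixture-like libraries 1530 genes were changed by the mutation, 677 of them back at the wild type level and 43 beyond it. Of the 2422, 524 kept their class there, and 782 kept it with library 2 alone.

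**Figure D3:**
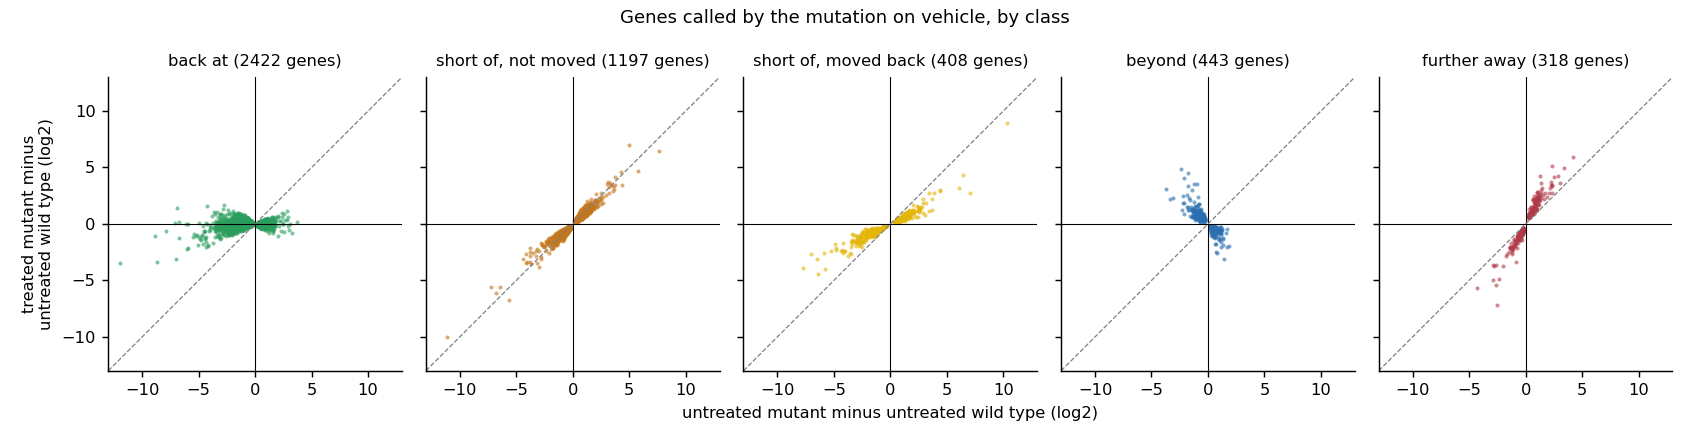
Genes called for the mutation on vehicle, in 5 panels by class; x axis, untreated mutant minus untreated wild type (log2); y axis, treated mutant minus untreated wild type (log2); the dashed line marks equal differences. Both axes share the wild type libraries, and a gene on the horizontal line is level with untreated wild type after finasteride, as in the panel of 2422 genes.

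Among the prostatic secretory proteins the mutation and the drug left very different positions. Pbsn, which encodes probasin, an androgen-induced secretory protein, stood at 18.08, 18.31 and 18.30 in untreated wild type, 15.66, 15.73 and 15.69 in the untreated mutant and 11.46, 10.35, 11.39, 11.13 and 11.09 in the treated mutant. The 3 groups did not overlap, and each step was downward: the treated mutant lay -7.15 ± 0.22 from untreated wild type (limma adjusted p = 1.03e-11), after -2.54 by the mutation. Tgm4, the prostate transglutaminase that cross-links seminal proteins, was at 18.49, 18.91 and 18.67 in untreated wild type, 18.80, 19.14 and 18.99 in the untreated mutant and 15.62, 17.00, 16.05, 16.16 and 16.54 in the treated mutant. It was not called for the mutation and was lower in every treated library (-2.42 ± 0.33, limma adjusted p = 4.09e-05). Mmp7, a matrix metalloprotease of secretory epithelium, was at 15.12, 14.88 and 14.99 in untreated wild type, 11.01, 10.54 and 10.64 in the untreated mutant and 12.01, 13.50, 12.40, 12.58 and 12.98 in the treated mutant. It moved back by 1.96 with finasteride and remained -2.30 from wild type, with no overlap between any of the groups.

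Pigr, the carrier that moves polymeric immunoglobulin across epithelium, was back at the wild type level. It stood at 15.01, 14.89 and 14.91 in untreated wild type, 9.16, 9.004 and 8.89 in the untreated mutant and 15.12, 14.59, 15.11, 14.96 and 14.85 in the treated mutant. The untreated mutant lay far below both other groups, which overlapped, and the treated mutant differed from wild type by -0.015 ± 0.60 (95% interval -1.28 to 1.25). Msmb, a small secreted protein of the prostate named here after its values were seen, moved from 9.90, 9.29 and 9.58 to 12.89, 13.06, 13.04, 12.90 and 13.05 and stayed below the 15.73, 16.39 and 16.10 of wild type. The call of Msmb against wild type was lost without the mixture-like libraries (limma adjusted p = 0.0774). In the other direction, Klk1b22, a glandular kallikrein, rose with the mutation from 2.25, 1.49 and 2.35 to 9.11, 10.20 and 9.80 and was still at 7.67, 9.38, 8.19, 8.30 and 8.75 in the treated mutant. Klk1b22 belongs to a family of near-identical kallikreins among which reads may be split. Of the 16 tested secretory genes 2 were higher and 5 lower than in untreated wild type, with a median of -1.94 after -3.00 in the untreated mutant. In bulk tissue, fewer cells of a type and less RNA per cell cannot be told apart.

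The promoter windows of Pbsn, which fell at each step, and of Pigr, which came back, 250 bases before to 50 after the start in RefSeq on GRCm38.p6, are shown to set their steroid receptor motifs side by side. The window of Pbsn is chrX:77853451-77853750 on the minus strand, and that of Pigr is chr1:130826434-130826733 on the plus strand. Capitals mark AGAACA, which each window held once.
Pbsn: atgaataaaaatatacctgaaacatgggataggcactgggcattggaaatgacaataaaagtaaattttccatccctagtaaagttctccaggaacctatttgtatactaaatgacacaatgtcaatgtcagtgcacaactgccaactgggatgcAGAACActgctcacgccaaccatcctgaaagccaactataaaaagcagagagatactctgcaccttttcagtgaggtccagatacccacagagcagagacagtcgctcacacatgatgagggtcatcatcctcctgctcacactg
Pigr: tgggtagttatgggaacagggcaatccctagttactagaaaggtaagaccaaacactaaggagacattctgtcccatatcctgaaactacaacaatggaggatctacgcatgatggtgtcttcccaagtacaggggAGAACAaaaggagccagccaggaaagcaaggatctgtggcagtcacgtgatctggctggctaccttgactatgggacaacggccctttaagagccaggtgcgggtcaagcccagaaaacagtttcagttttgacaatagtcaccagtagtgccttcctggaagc
AGAACA, searched on both strands (TGTTCT on the other), was in 12.6% of the 11315 tested genes with a window, in 12.6% of those back at the wild type level and in 12.0% of those further away. A match describes the letters only.

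Of the 32 androgen-induced genes, 13 were back at the wild type level, 3 were higher and 9 lower in the treated mutant. Without the mixture-like libraries 1 was higher and 6 lower. Fkbp5, an androgen-induced co-chaperone of steroid receptors, was at 12.995, 12.61 and 12.72 in untreated wild type, 11.27, 11.73 and 11.54 in the untreated mutant and 12.89, 13.32, 12.97, 13.001 and 13.07 in the treated mutant. The untreated mutant lay below the other groups, and finasteride raised it by 1.54 ± 0.30 (limma adjusted p = 0.000645). Homer2 and Mboat2 were back by the same rule and are named after their values were seen, although Homer2 was called neither for finasteride with library 2 alone nor for the mutation without the mixture-like libraries. They lay -2.61 and -2.23 from wild type before and -0.009 and -0.13 after treatment. Tmprss2, an androgen-induced membrane protease, took the other course. It was at 13.41, 13.48 and 13.41 in untreated wild type, 12.33, 12.77 and 12.64 in the untreated mutant and 11.74, 11.80, 11.76, 11.68 and 11.69 in the treated mutant, falling with the mutation and again with the drug, and differed from wild type by -1.70 ± 0.079 (limma adjusted p = 1.63e-09). Fkbp5 was not called for the mutation without the mixture-like libraries, while Tmprss2 stayed further away.

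The targets of the drug showed smaller differences. Srd5a1, the type 1 5-alpha-reductase, was at 6.79, 6.81 and 6.88 in untreated wild type, 6.57, 6.68 and 6.57 in the untreated mutant and 6.88, 6.92, 6.88, 6.89 and 7.16 in the treated mutant, with no call against wild type (0.12 ± 0.13). Srd5a2, the type 2 enzyme, was at 7.61, 7.33 and 7.73 in untreated wild type, 6.53, 6.43 and 6.52 in the untreated mutant and 7.53, 6.91, 7.42, 7.47 and 7.36 in the treated mutant. It was lower in the untreated mutant and back after treatment, where library 2 was the lowest, and it was not called for the mutation without the mixture-like libraries (limma adjusted p = 0.0914). Genes of the polyamine pathway, for whose products the prostate is known, were split. Odc1, which makes putrescine, was at 11.42, 11.13 and 11.12 in untreated wild type, 10.08, 10.39 and 10.33 in the untreated mutant and 10.48, 10.44, 10.54, 10.39 and 10.43 in the treated mutant, and Sms, the spermine synthase, lay -1.09 ± 0.12 from wild type after -1.16 before the drug. Of the 13 polyamine genes 6 were lower, 2 higher and 5 not called (median -0.017), against 18.3% lower and 17.5% higher of all genes, and without the mixture-like libraries 3 were lower and 1 higher.

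**Figure D4:**
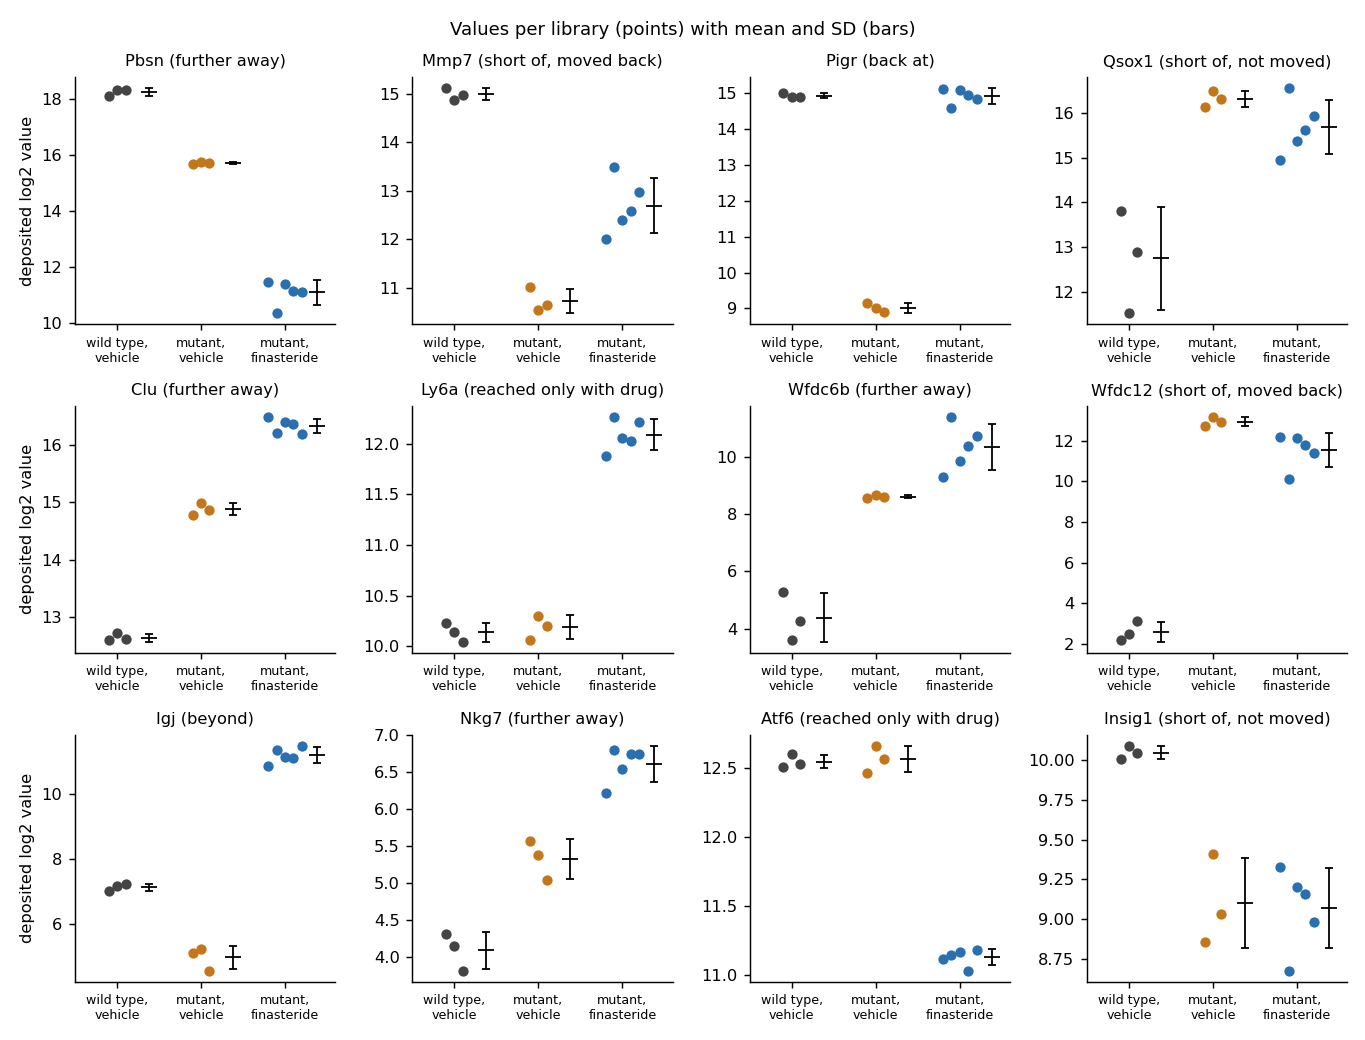
Deposited log2 value (y axis, a different range in each panel) of 12 genes in each library of 3 groups (x axis), with the mean and SD beside the points and the class in the title. Pigr returns to the wild type range, Pbsn and Clu lie further from it than in the untreated mutant, and Atf6 leaves it only after finasteride.

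Markers of proximal luminal cells stood above the wild type level: 10 of 14 were higher and 1 lower in the treated mutant, and the median went from -0.26 in the untreated to 1.81 in the treated mutant. Clu, the secreted chaperone clusterin, was at 12.60, 12.73 and 12.61 in untreated wild type, 14.78, 14.99 and 14.87 in the untreated mutant and 16.48, 16.22, 16.41, 16.37 and 16.20 in the treated mutant. The groups did not overlap, and Clu rose at each step to 3.69 ± 0.16 above wild type (limma adjusted p = 7.64e-10). Ly6a, the surface antigen Sca-1, was not called for the mutation and was higher in all treated libraries, at 11.88, 12.26, 12.06, 12.03 and 12.22 against 10.23, 10.14 and 10.04 in wild type. Psca (3.54 ± 0.39) and Ly6d (2.35 ± 0.42), both small surface antigens of this cell type and named after their values were seen, were also reached only with the drug. Gsta4, a glutathione transferase, had been lower in the untreated mutant (-0.87) and was beyond wild type after treatment (1.68 ± 0.14). The counts were 9 higher of 14 both without the mixture-like libraries and with library 2 alone.

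Most basal genes were also above the wild type level, in part already before the drug. Of 16 basal genes 11 were higher and 2 lower, and 7 of the 16 were short of the wild type level with no call for the drug. The counts were 7 higher and 1 lower without the mixture-like libraries. Jag2, a Notch ligand, was at 9.19, 9.25 and 9.02 in untreated wild type, 10.21, 9.91 and 10.04 in the untreated mutant and 10.36, 10.62, 10.11, 10.31 and 10.05 in the treated mutant, so treated and untreated mutant overlapped and both lay above wild type. Itgb4, an integrin of hemidesmosomes, rose only with the drug (0.73 ± 0.073, limma adjusted p = 2.28e-06). Of 5 tested urothelial genes 3 were higher and 2 not called. Upk2, a uroplakin of the bladder lining, was at 5.24, 4.38 and 5.20 in untreated wild type, 8.31, 7.92 and 8.09 in the untreated mutant and 6.96, 8.45, 7.53, 7.55 and 7.72 in the treated mutant, above wild type in every mutant library. Gata3, a transcription factor of urothelium and luminal cells, came part of the way back, from 1.35 to 0.58 ± 0.13, with no call for the drug with library 2 alone. Luminal markers split: of 18, 10 were higher and 5 lower, and 4 and 4 without the mixture-like libraries. Their transcription factors went both ways, with Spdef (-1.10), Ehf (-0.86), Hoxb13 (-0.90) and Foxa1 (-0.70) among the lower and Hoxa13 (0.82), Grhl2 (0.53) and Elf3 (0.38) among the higher. Hoxb13, Foxa1, Grhl2 and Elf3 were named after their values were seen, Elf3 was not called without the mixture-like libraries, and Grhl2 was not called with library 2 alone. Of the keratins that define luminal cells, Krt8 was at 12.55, 12.93, 12.53, 12.61 and 12.48 in the treated mutant against 12.22, 12.41 and 12.20 in wild type and Krt18 at 13.39, 13.55, 13.39, 13.44 and 13.34 against 13.66, 13.82 and 13.69. The groups overlapped for neither, Krt8 being higher (0.34 ± 0.12, limma adjusted p = 0.0384) and Krt18 lower (-0.30 ± 0.10, limma adjusted p = 0.0330), and neither was called without the mixture-like libraries.

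Among the lists of 9 or more tested members, the largest median belonged to the whey acidic protein antiproteases, small secreted inhibitors of proteases, with 3.81 after 2.41 in the untreated mutant, and 8 of 10 were higher than in untreated wild type. Only these 10 of the 20 listed genes passed the filter. It used the mean over all 16 libraries, so a gene barely present in wild type could pass through its mutant level. The median and the count are therefore in part built in. On chromosome 2, Wfdc6a, Eppin, Wfdc8 and Wfdc6b follow each other with no other protein-coding gene between them in RefSeq, and all 4 were further away after finasteride. Eppin, an epididymal protease inhibitor that also coats sperm, was at 3.76, 4.04 and 3.71 in untreated wild type, 6.16, 6.28 and 6.64 in the untreated mutant and 6.91, 8.86, 7.73, 7.99 and 8.54 in the treated mutant. Wfdc6b was at 5.29, 3.62 and 4.26 in untreated wild type, 8.56, 8.68 and 8.62 in the untreated mutant and 9.30, 11.40, 9.87, 10.41 and 10.74 in the treated mutant, and Wfdc6a at 1.96, 1.34 and 2.09 in untreated wild type, 3.58, 4.27 and 4.45 in the untreated mutant and 4.99, 5.65, 4.99, 5.22 and 5.43 in the treated mutant. For these genes no library of any group overlapped with those of another group, and library 2, with the lowest seminal vesicle and epididymal sums of the treated mutant, was the highest of that group. Wfdc8, named after its values were seen, lay 4.91 ± 0.37 above wild type (limma adjusted p = 1.29e-07). Wfdc6b and Wfdc8 were still higher than in wild type without the mixture-like libraries, but finasteride in the mutant was no longer called. Wfdc6a and Wfdc6b are similar copies among which reads may be split, and whether counting used the strand is not given.

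The neighbours did not all follow. Wfdc12, an antiprotease with the largest difference of the list, was at 2.19, 2.46 and 3.14 in untreated wild type, 12.72, 13.16 and 12.95 in the untreated mutant and 12.16, 10.14, 12.13, 11.80 and 11.41 in the treated mutant. It moved back by -1.41 (not called without the mixture-like libraries) and remained 8.93 ± 0.49 above wild type (limma adjusted p = 5.72e-09), with library 2 the lowest of its group. Slpi, the secretory leukocyte protease inhibitor, fell with the mutation (-3.97) and was back after treatment (-0.10 ± 0.48), while Wfdc2 was reached only with the drug (2.81 ± 0.35). Both were named after their values were seen. The windows of 3 of the 4 adjacent genes are given because they moved together. They are those of Eppin (chr2:164593522-164593821 on the minus strand), Wfdc6b (chr2:164613450-164613749 on the plus strand) and Wfdc8 (chr2:164613577-164613876 on the minus strand), all on GRCm38.p6 in RefSeq, with TGTTCT, the reverse complement of AGAACA, in capitals.
Eppin: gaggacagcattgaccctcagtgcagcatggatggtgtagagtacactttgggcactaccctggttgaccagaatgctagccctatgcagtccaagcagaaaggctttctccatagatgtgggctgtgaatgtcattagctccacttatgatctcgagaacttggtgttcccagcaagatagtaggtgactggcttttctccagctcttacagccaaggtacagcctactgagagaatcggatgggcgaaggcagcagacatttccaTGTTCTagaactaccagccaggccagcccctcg
Wfdc6b: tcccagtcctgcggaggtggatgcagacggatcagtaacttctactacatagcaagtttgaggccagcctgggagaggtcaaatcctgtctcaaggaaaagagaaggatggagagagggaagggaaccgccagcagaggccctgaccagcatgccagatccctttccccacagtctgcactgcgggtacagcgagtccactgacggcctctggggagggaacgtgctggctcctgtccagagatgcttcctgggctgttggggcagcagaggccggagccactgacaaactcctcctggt
Wfdc8: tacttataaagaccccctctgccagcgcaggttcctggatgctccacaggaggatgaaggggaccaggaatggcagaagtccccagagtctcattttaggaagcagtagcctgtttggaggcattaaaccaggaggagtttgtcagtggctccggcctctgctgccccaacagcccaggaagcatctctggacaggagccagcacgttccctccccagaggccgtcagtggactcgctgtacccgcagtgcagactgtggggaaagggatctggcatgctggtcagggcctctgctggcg
The windows of Wfdc6b and Wfdc8 lie on opposite strands and share 173 bases. Only the window of Eppin held the motif, once, and none of the 3 held TGATGNAA or TCACNCCAC, which were in 2.27% and 1.19% of all windows.

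Genes of lymphocytes and antigen presentation stood above the wild type level after finasteride. Among 18 genes of T and NK cells, 15 stood higher and none lower, and 8 of the 18 were further away than in the untreated mutant. Nkg7, a protein of cytotoxic granules, was at 4.32, 4.15 and 3.82 in untreated wild type, 5.57, 5.38 and 5.04 in the untreated mutant and 6.22, 6.80, 6.54, 6.75 and 6.74 in the treated mutant. Trac, the constant chain of the T cell receptor, was at 3.95, 3.33 and 3.07 in untreated wild type, 4.36, 4.33 and 4.57 in the untreated mutant and 5.16, 6.37, 5.637, 5.73 and 5.90 in the treated mutant, and Cd8b1, a co-receptor chain, lay 2.90 ± 0.26 above wild type (limma adjusted p = 8.70e-07). For Nkg7 and Trac the 3 groups did not overlap. The summed level of the T and NK list was 9.09 to 9.18 in untreated wild type, 9.65 to 9.81 in the untreated mutant and 10.46 to 11.16 in the treated mutant. The count was 14 of 18 without the mixture-like libraries, as with library 2 alone, but Nkg7 and Trac were then not called for the mutation.

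B and plasma cell genes crossed the wild type level from below or left it only with the drug, with 8 of 10 higher and 1 lower (median 3.05 after -0.094). The summed level of the list was 11.775 to 12.347 in the treated mutant and overlapped the 11.641 to 12.035 of untreated wild type. Of the heavy chains given below, Ighm and Igha are not members of this list. Igj, the joining chain of polymeric immunoglobulin, was at 7.02, 7.17 and 7.23 in untreated wild type, 5.13, 5.25 and 4.59 in the untreated mutant and 10.84, 11.35, 11.14, 11.11 and 11.46 in the treated mutant. Ighm, the heavy chain of immunoglobulin M, was at 9.67, 8.80 and 9.21 in untreated wild type, 6.98, 8.06 and 7.37 in the untreated mutant and 13.72, 13.71, 13.78, 13.68 and 13.68 in the treated mutant. In both genes the untreated mutant was the lowest group and the treated mutant the highest, with no overlap. Igha, the heavy chain of immunoglobulin A, was called only after the drug, at 9.75, 13.06, 10.92, 11.58 and 12.09 against 5.65, 8.65 and 7.67 in wild type, and library 2 was the highest. Ighg2b (4.38 ± 0.64), Cd79b (3.27 ± 0.26) and Pou2af1 (3.07 ± 0.21), an immunoglobulin chain, a B cell receptor subunit and a B cell coactivator, were also reached only with the drug. Heavy chain genes share sequence, and reads may be split among them. The list had 8 higher genes without the mixture-like libraries and with library 2 alone.

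Macrophage genes showed the beyond pattern most often of the 36 lists: 7 of 20 were lower in the untreated mutant and higher than wild type after treatment, and 15 of 20 were higher in all. The mutation had lowered 10 of the 20. Of all genes that the mutation changed, 8.36% were beyond. The complement genes C1qa, C1qb and C1qc, named after their values were seen, went from -0.75, -0.79 and -0.68 to 0.66, 0.86 and 0.70. Cx3cr1, a chemokine receptor, was at 7.94, 7.92, 7.85, 7.83 and 8.01 in the treated mutant against 6.49, 6.73 and 7.03 in wild type, and Mpeg1, a pore-forming protein of phagocytes, differed by 1.11 ± 0.16. The macrophage count fell to 6 of 20 without the mixture-like libraries, where C1qa and C1qb were not called and none of the 3 complement genes was called for the mutation. Only 43 of all genes were beyond in that fit, and how many of the 7 remained so was not counted. All 9 class II genes were higher, 8 of them reached only with the drug. H2-Aa stood at 10.10, 10.30 and 10.13 in untreated wild type, 10.04, 10.25 and 10.21 in the untreated mutant and 11.29, 11.72, 11.42, 11.40 and 11.57 in the treated mutant, so the untreated groups overlapped and the treated mutant lay above both. Of 14 class I genes 11 were higher and 2 lower, and H2-K1 and H2-D1 rose at both steps to 1.30 ± 0.14 and 1.33 ± 0.13 above wild type, although neither was called for the mutation without the mixture-like libraries. In that fit 7 of 9 class II genes and 7 of 14 class I genes were higher and none lower. Of 24 interferon response genes 14 rose and 2 fell with finasteride in the mutant, the median went from -0.52 to 0.085, and 4 were higher and 2 lower than in untreated wild type.

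**Figure D5:**
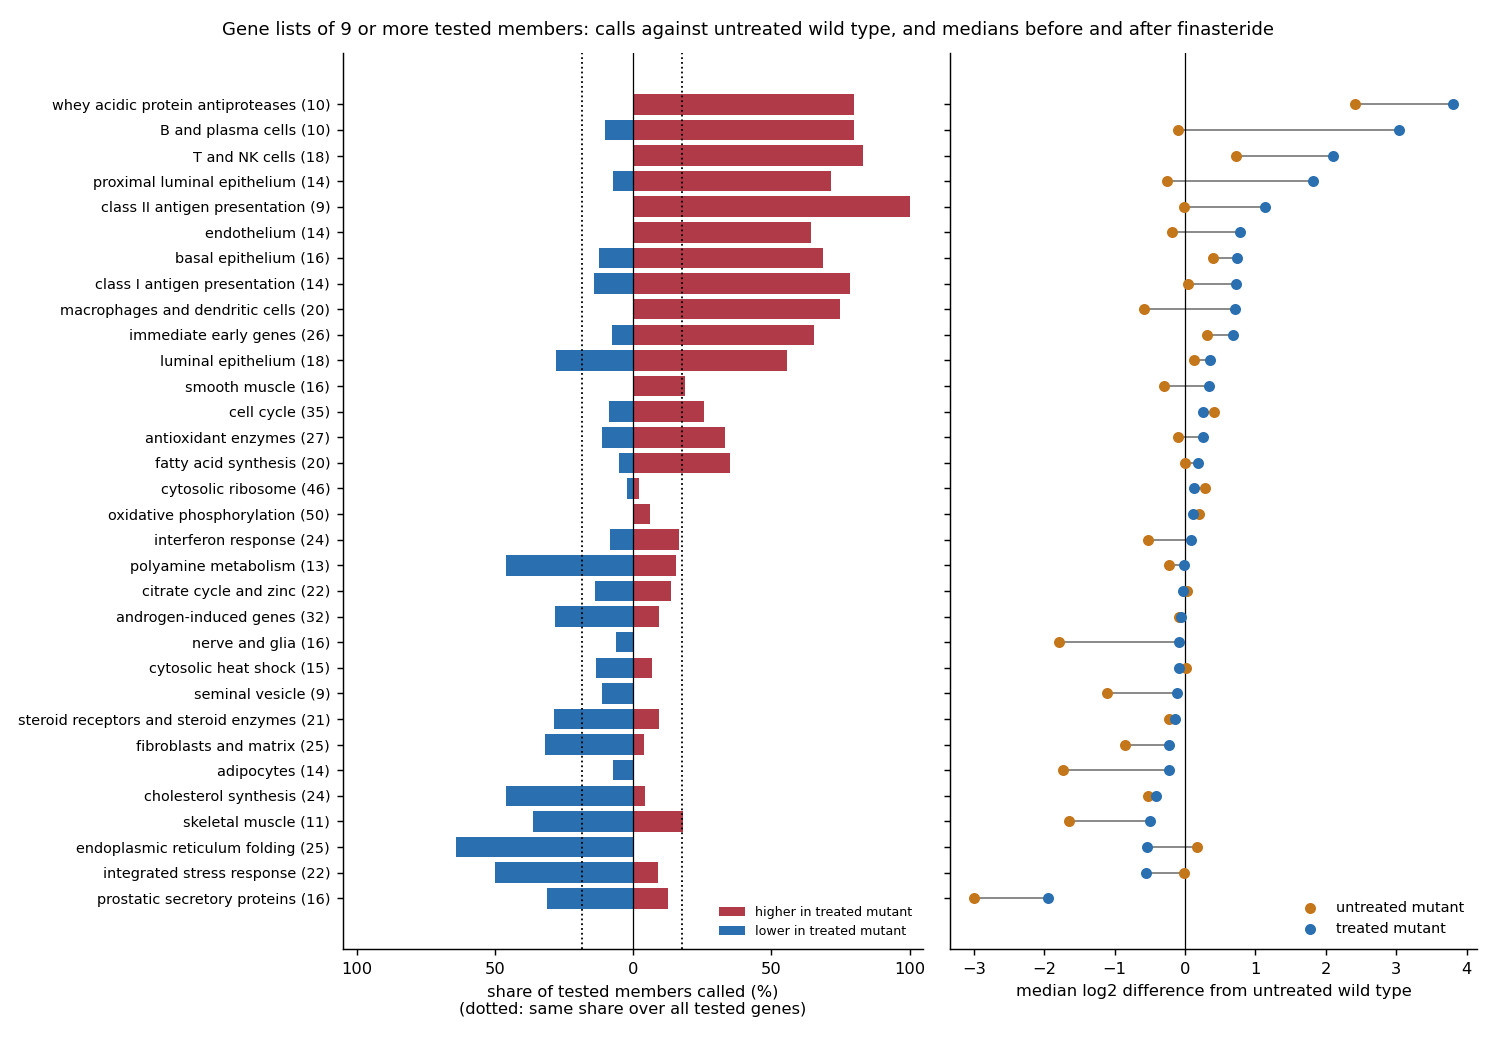
Left, share of tested members of each gene list (number of members in brackets) called higher (red) or lower (blue) in the treated mutant than in untreated wild type, with the shares over all tested genes (17.5% and 18.3%) dotted; right, the median log2 difference from untreated wild type of the untreated (orange) and treated (blue) mutant. Immune, proximal luminal and antiprotease lists lie to the right after treatment, nerve and fibroblast medians come back towards 0, and the endoplasmic reticulum folding median passes from above 0 to below it.

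Genes that fold and check secretory proteins in the endoplasmic reticulum left the wild type level only with the drug. Of 25, 16 were lower and none higher in the treated mutant, and all 16 had not been called for the mutation (median -0.54 after 0.17). Atf6, a sensor of unfolded proteins, was at 12.51, 12.60 and 12.53 in untreated wild type, 12.47, 12.66 and 12.57 in the untreated mutant and 11.12, 11.14, 11.17, 11.03 and 11.18 in the treated mutant. The untreated groups overlapped, and every treated library was lower by more than 1 log2 unit (-1.42 ± 0.061, limma adjusted p = 7.64e-10). Dnajc3, a co-chaperone, and Canx, the lectin chaperone calnexin, lay -1.19 ± 0.14 and -0.54 ± 0.079 from wild type. The lower count was 6 of 25 without the mixture-like libraries and also with library 2 alone, where 2 were higher.

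Of 22 genes of the integrated stress response, which adapts amino acid supply to stress, 11 were lower and 2 higher. The counts were 5 lower and 1 higher without the mixture-like libraries. Asns, the asparagine synthetase, was at 12.33, 12.25 and 12.25 in untreated wild type, 11.11, 11.32 and 11.28 in the untreated mutant and 10.30, 10.01, 10.32, 10.24 and 10.23 in the treated mutant. It fell at both steps to -2.05 ± 0.11 from wild type with no overlap between groups (limma adjusted p = 6.20e-09). Cth, which makes cysteine, went the other way with the mutation and stayed there, at 9.04, 8.55, 8.997, 8.84 and 8.94 against 7.51, 7.50 and 7.51 in wild type. The zinc-binding metallothioneins Mt1 and Mt2 also lay further away. Mt1 was at 14.31, 14.30 and 14.28 in untreated wild type, 12.96, 13.39 and 13.24 in the untreated mutant and 12.26, 12.65, 12.17, 12.39 and 12.16 in the treated mutant, and Mt2 differed from wild type by -2.07 ± 0.12 after -1.34 before the drug. For Mt1 and Mt2 finasteride was not called with library 2 alone, where 7 of the 22 stress response genes were lower.

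Genes of cholesterol synthesis were more often lower than higher in the treated mutant. Of 24 genes 11 were lower and 1 higher than in wild type, and 9 of the 24 were short of the wild type level with no call for the drug. Insig1, a sterol sensor, was at 10.01, 10.09 and 10.05 in untreated wild type, 8.86, 9.41 and 9.03 in the untreated mutant and 9.33, 8.68, 9.20, 9.16 and 8.98 in the treated mutant, with the mutant groups overlapping and both below wild type. Sc4mol, a sterol demethylating oxidase, lay -0.87 from wild type before and -0.89 ± 0.16 after the drug, and Dhcr7, which makes cholesterol in the last step, -0.53 before and -0.78 ± 0.14 after. The lower count was 4 of 24 without the mixture-like libraries, and Sc4mol and Dhcr7 were not called for the mutation. Of 20 genes of fatty acid synthesis 7 were higher and 1 lower, none of them higher without the mixture-like libraries. Of 27 antioxidant enzyme genes, a separate list, 9 were higher and 3 lower, against 17.5% higher and 18.3% lower of all genes. The counts were 5 and 1 without the mixture-like libraries. Prdx6, an abundant peroxiredoxin, was among the lower and was not called for the mutation. It was at 14.44, 15.26, 14.71, 14.83 and 15.10 in the treated mutant against 16.37, 17.05 and 16.80 in untreated wild type.

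Fibroblast and matrix genes lowered by the mutation were back about as often as all genes that it lowered. The mutation had lowered 21 of the 25 on this list. After finasteride 11 of these were back, against 52.8% of all lowered genes, and 6 had moved part of the way. Col6a3, a chain of collagen VI, was at 12.92, 12.63 and 12.67 in untreated wild type, 10.06, 10.15 and 10.02 in the untreated mutant and 10.78, 11.03, 10.88, 10.87 and 10.79 in the treated mutant, and the groups did not overlap, although the drug was called neither without the mixture-like libraries nor with library 2 alone. Ogn, the small proteoglycan osteoglycin, was at 10.57, 9.90 and 10.41 in untreated wild type, 8.48, 8.24 and 8.50 in the untreated mutant and 9.75, 8.58, 9.73, 9.58 and 9.57 in the treated mutant, where library 2 stayed close to the untreated mutant. A single fibroblast gene (1 of 25) was called lower than wild type without the mixture-like libraries, and Ogn was not.

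Of 16 nerve and glia genes 11 were back at the wild type level, after 12 had been lowered by the mutation. Sox10, a glial transcription factor, was at 6.20, 7.19 and 6.61 in untreated wild type, 5.24, 4.99 and 5.05 in the untreated mutant and 6.73, 5.46, 6.63, 6.32 and 6.10 in the treated mutant, and library 2 lay below libraries 1, 3, 4 and 5. The nerve sum of library 2, 10.8, was within the 10.6 to 10.9 of the untreated mutant, that of the other treated libraries reached 12.7, and untreated wild type spread from 11.2 to 13.2. In the fit with library 2 alone 4 of the 16 were called lower than wild type, the median was -1.78 in place of -0.083, and Sox10 was not called for finasteride without the mixture-like libraries. The part of neighbouring tissue in the return of these genes was not tested. For adipocytes the mutation had lowered 5 of 14 genes and 4 of the 14 were back, with a median of -1.73 before and -0.22 after. Over all genes that the mutation lowered, 52.8% were back.

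Endothelial genes were above the wild type level, 9 of 14 higher and none lower, of which 8 were reached only with the drug. Pecam1, an adhesion molecule of endothelium, was at 8.95, 9.06 and 8.99 in untreated wild type, 8.88, 8.73 and 8.78 in the untreated mutant and 9.93, 9.52, 9.89, 9.69 and 9.64 in the treated mutant, and every treated library lay above both untreated groups. Flt1, a receptor for vascular growth factors, differed by 1.02 ± 0.12. The endothelial count was 4 of 14 without the mixture-like libraries and with library 2 alone. Immediate early genes, which respond within minutes to stimuli and to handling of tissue, were higher in 17 and lower in 2 of 26. The counts were 10 higher and 1 lower without the mixture-like libraries. Ier3, an early response gene, was at 7.40, 7.82 and 7.52 in untreated wild type, 7.66, 7.82 and 7.81 in the untreated mutant and 8.48, 8.53, 8.42, 8.38 and 8.32 in the treated mutant, and Zfp36, which destabilises messenger RNA, differed by 0.63 ± 0.073 (limma adjusted p = 1.02e-05). Of 35 cell cycle genes 9 were higher and 3 lower, against 17.5% higher and 18.3% lower of all genes. Without the mixture-like libraries 4 were higher and none lower. The replication helicase subunits Mcm5 and Mcm7 stayed above wild type, by 1.05 ± 0.15 and 0.65 ± 0.087. Mcm7 was not called for the mutation without the mixture-like libraries (limma adjusted p = 0.0532).

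Several lists were close to or below the background of 17.5% higher and 18.3% lower. Of 46 ribosomal protein genes 1 was higher and 1 lower, and of 50 genes of oxidative phosphorylation 3 were higher. With library 2 alone 17 ribosomal and 23 oxidative phosphorylation genes were higher, medians 0.68 and 0.47. Of 15 heat shock genes 1 was higher and 2 lower, and of 16 smooth muscle genes 3 were higher.

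Single genes of each class ran as follows, those that kept their class without the mixture-like libraries being taken first. Beyond the wild type level from above went Slc18a1, a monoamine transporter, at 9.24, 9.88 and 9.63 in untreated wild type, 10.72, 11.17 and 10.95 in the untreated mutant and 7.54, 7.80, 7.78, 7.73 and 7.71 in the treated mutant. Morc4 and Usp16 did the same, from 1.19 and 1.06 to -0.55 ± 0.093 and -0.55 ± 0.089. Egf, the epidermal growth factor, was at 14.41, 14.42 and 14.35 in untreated wild type, 15.19, 15.56 and 15.39 in the untreated mutant and 13.40, 14.005, 13.58, 13.56 and 13.73 in the treated mutant, and with library 2 alone it was not called against wild type. Beyond from below went Kcnn4, a calcium-activated potassium channel, at 7.76, 7.51 and 7.55 in untreated wild type, 5.24, 5.76 and 5.36 in the untreated mutant and 9.78, 9.12, 9.58, 9.54 and 9.18 in the treated mutant, and Atp13a4, from -3.40 to 2.23 ± 0.44. For Slc18a1, Morc4, Usp16, Egf and Kcnn4 no libraries of the 3 groups overlapped.

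Short of the wild type level after moving back were Slc28a2, a nucleoside transporter, at 5.06, 4.49 and 5.04 in untreated wild type, 10.27, 11.44 and 11.05 in the untreated mutant and 8.87, 6.61, 8.61, 8.23 and 7.83 in the treated mutant, and the related genes Sectm1a and Sectm1b, at 1.47 ± 0.10 and 2.76 ± 0.14 above wild type after 2.62 and 3.84. Il2rg, the shared chain of several cytokine receptors, came back from 3.14 to 1.82 ± 0.26. From below, Rimklb moved from -5.80 to -3.998 ± 0.26, Creb3l1, a membrane-bound transcription factor, from -3.51 to -2.63 ± 0.19, and Cntnap2, an adhesion protein, from -3.49 to -1.59 ± 0.23. In each of these genes the treated mutant libraries lay between the other groups. The drug was not called for Il2rg and Creb3l1 with library 2 alone.

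Short of the level with no call for the drug was Qsox1, a sulfhydryl oxidase that forms disulfide bonds in secreted proteins, at 13.81, 11.53 and 12.89 in untreated wild type, 16.14, 16.50 and 16.32 in the untreated mutant and 14.96, 16.55, 15.37, 15.62 and 15.93 in the treated mutant. Library 2 of the treated mutant lay above the untreated mutant, the other 4 below it, and wild type lay below both groups. Ramp1, a partner of the calcitonin receptor-like receptor, stayed 3.323 ± 0.22 above wild type, and Kcnj15, a potassium channel, 3.42 ± 0.48. Below wild type stayed Ms4a5 at 3.18, 7.86, 5.89, 6.67 and 7.78 in the treated mutant against 13.13, 12.74 and 13.04 in wild type, with library 1 the lowest. Kcnn3, a potassium channel, Gpr37l1, a receptor, and Gucy2g, a guanylate cyclase, lay -3.45 ± 0.31, -3.39 ± 0.33 and -2.53 ± 0.46 from wild type.

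Further away beside the genes already given were Sprr1a, a cornified envelope protein, at 6.32, 6.50 and 6.20 in untreated wild type, 8.59, 8.45 and 8.63 in the untreated mutant and 9.48, 10.26, 9.50, 9.76 and 9.78 in the treated mutant, and Cox7a1, a subunit of cytochrome oxidase, at 2.77 ± 0.22 above wild type after 1.68. Downward, Fgl1, a fibrinogen-like protein, was at 11.90, 12.61 and 12.43 in untreated wild type, 10.13, 9.83 and 9.92 in the untreated mutant and 6.80, 8.10, 7.18, 7.27 and 7.71 in the treated mutant. Yeats2, a chromatin reader, and Syt7, a calcium sensor of exocytosis, reached -2.63 ± 0.081 and -2.17 ± 0.17 after -1.65 and -1.36. For Sprr1a and Fgl1 the 3 groups did not overlap.

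Back at the wild type level from below were Gpr83, a receptor, at 9.63, 9.03 and 9.48 in untreated wild type, 4.66, 4.002 and 4.62 in the untreated mutant and 9.45, 9.49, 9.46, 9.45 and 9.53 in the treated mutant, and Adam7, a membrane protein of the epididymis, at 8.92, 8.76 and 8.80 in untreated wild type, 1.40, 2.42 and 2.37 in the untreated mutant and 9.33, 8.32, 9.32, 9.07 and 9.09 in the treated mutant. Their differences from wild type were 0.10 ± 0.77 (95% interval -1.53 to 1.73) and 0.20 ± 1.03 (95% interval -1.99 to 2.40). Dclk3, a kinase, went from -4.68 to -1.02 ± 0.66 and was back by the rule, but every treated library, at 8.57, 7.49, 8.50, 8.31 and 8.07, lay below every wild type library, at 9.31, 9.15 and 9.17, and finasteride was not called for it with library 2 alone. The SE of the fit pools all 4 groups, and for Gpr83, Adam7 and Dclk3 the wild type libraries on finasteride spread most, with an SD of 2.02, 2.70 and 1.69. From above, Hmgcll1 was at 4.78, 5.17 and 5.49 in untreated wild type, 7.49, 7.80 and 7.58 in the untreated mutant and 5.53, 5.17, 5.03, 4.82 and 5.11 in the treated mutant, and Acrv1, a protein of the sperm acrosome, at 7.76, 7.18 and 7.65 in untreated wild type, 9.50, 9.75 and 9.61 in the untreated mutant and 7.74, 7.86, 7.90, 7.56 and 8.03 in the treated mutant. In both the treated and the wild type libraries overlapped, and the untreated mutant lay apart. Rps6ka2, a kinase, and Dnah11, a dynein chain, went from 2.501 and 2.90 to -0.02 ± 0.24 and 0.65 ± 0.36, and Dnah11 was called above wild type with library 2 alone.

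Reached only with the drug were Col4a6, a basement membrane collagen, at 13.90, 13.69 and 13.75 in untreated wild type, 13.36, 13.65 and 13.50 in the untreated mutant and 10.74, 10.52, 10.73, 10.62 and 10.68 in the treated mutant, and Pgm2l1, a sugar phosphate enzyme, at 12.68, 12.85 and 12.90 in untreated wild type, 12.49, 13.14 and 12.91 in the untreated mutant and 9.69, 9.16, 9.60, 9.52 and 9.60 in the treated mutant. The untreated groups overlapped for Pgm2l1 but not for Col4a6, and every treated library lay more than 2 log2 units below them. The genes of this paragraph were taken only where treated mutant and untreated wild type did not overlap, so that separation is built in. Mcoln3, an ion channel of endosomes, and Chn2, a regulator of Rac, lay -4.24 ± 0.35 and -2.89 ± 0.19 from wild type. Ctse and Unc79, though not called for the mutation, already lay 1.41 and 1.34 above wild type on vehicle, without overlap of the untreated groups. Ctse, the aspartic protease cathepsin E, was at 7.96, 6.47 and 7.33 in untreated wild type, 9.13, 8.12 and 8.74 in the untreated mutant and 10.44, 11.81, 10.82, 10.97 and 11.39 in the treated mutant, and Unc79, a subunit of a sodium leak channel, at 10.76, 6.33, 10.53, 10.16 and 9.65 in the treated mutant against 4.46, 5.35 and 4.59 in wild type, with library 2 the lowest and not called on its own.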

How the data were processed

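RNA from mouse prostate was enriched for poly-A, made into TruSeq libraries and sequenced on a HiSeq2000, per the labels' protocols. The submitters' processing notes name CASAVA 1.8.2, TopHat, Cufflinks, DESeq, DESeq2 and genome build mm9, without saying which made the table. The authors deposited 1 table of normalized expression that was read as log2 values, the base being inferred. The values may be shrunken at low levels, which was not tested and would understate differences of low genes. Read depth is not given, so no counting error is stated.

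Groups came from the labels. Replicate numbers follow sample order and pair nothing. Whether libraries are separate animals is not stated, so p-values reflect only the variation among these samples. limma 3.58.1 under R 4.3.3 fitted 4 group means over 16 libraries to the log2 values that the authors deposited, with a variance trend and Benjamini-Hochberg adjustment over 16506 genes, after checking on simulated data. The rule named Srd5a1, Srd5a2, Pbsn and Fkbp5, the 4 highest and 4 lowest genes of each class with an unlogged mean level of at least about 50, and the 3 members of each of 36 lists with the lowest p. Within a class, genes that kept it without the mixture-like libraries came first. Those reached only with the drug also needed treated mutant and untreated wild type libraries that did not overlap. Both traits are thus in part built in for the class genes. The text names most of the rule's genes, and the others were chosen after their values were seen. The members and lists were chosen with earlier results of these data known. Of 720 list entries 714 were in the table and 671 tested. The targeted gene and a few rule-named genes are not reported here.

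A library was mixture-like where a mixture of 2 others of its group, both weights over 0.2, left a residual SD under 0.1 over genes of at least 8 log2 units. Promoter windows came from RefSeq on GRCm38.p6, matched by symbol for 11315 of the 16506 genes. No coordinates of the authors' build were used.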

Additional observations from a re-analysis of the deposited data

Results flagged for a closer look

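Within the 5 treated mutant libraries, the gap of the most extreme library to its nearest neighbour was divided by the range of the group, and values whose share exceeded Dixon's 95% critical value for 5 samples were set aside. Of 118 genes and summed levels examined, 13 passed. The chance rate of about 1 in 20 does not hold for them, so the count is no test. The genes were picked for the text, some after their values were seen, and the sums had already set library 2 apart. Libraries 3 and 4 were also mixture-like and so not independent of the others. In 12 of the 13 the extreme library was library 2, as the lowest. The share was 0.894 for Crisp1, 0.885 for Akr1b7, 0.784 for the seminal vesicle sum and 0.787 for the epididymis and vas deferens sum. It was 0.840 for Ogn, a stromal gene. It was 0.740 for Adam7, 0.749 for Unc79, 0.782 for Sc4mol, 0.721 for Asns, 0.735 for Morc4, 0.713 for Sms and 0.723 for Srd5a2. Srd5a1 was the exception, with library 5 as the highest and a share of 0.843. What sets library 2 apart was not tested.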

How the results depend on the processing

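For each named gene other than Sva and Defb42, 1 difference was followed over every setting. It was finasteride in the mutant for genes back at the wild type level and treated mutant against untreated wild type for the others. Of these, only Srd5a1, which was not called, changed sign (-0.054 under quantile normalization). Without the mixture-like libraries 2186 genes were called, 1072 higher, with 1530 for the mutation and 3340 for finasteride in the mutant. The classes then held 43 genes beyond, 677 back at, 55 short of and moved back, 418 short of and not moved, 39 further away, 298 undecided and 1631 reached only with the drug. Fitting only the groups compared gave 671 beyond and 618 short of and moved back. At an adjusted p under 0.01, 3921 genes were called, 1860 higher, with 3131 for the mutation, 154 beyond, 1470 back at, 174 short of and moved back, 759 short of and not moved and 124 further away. Among genes changed by over 1 log2 unit the mutation left 87 beyond, 1001 back at, 333 short of and not moved, 71 further away and 92 undecided. With library 2 alone finasteride changed 4502 genes in the mutant, with 276 beyond, 1130 back at, 90 short of and moved back and 2041 undecided.

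Leaving out each library in turn gave 4408 to 6450 called genes, 2120 to 3160 of them higher, 3922 to 6284 for the mutation and 6358 to 8819 for finasteride in the mutant. The classes ranged from 234 to 690 beyond, 1685 to 2908 back at, 294 to 491 short of and moved back, 799 to 1289 short of and not moved, 173 to 401 further away, 385 to 663 undecided and 2865 to 3820 reached only with the drug. The count beyond was 234 without untreated wild type library 3 and 690 without treated mutant library 2, and the count further away was lowest without untreated mutant library 3. The cause of these shifts was not tested. Over all 3 comparisons of the 116 genes examined singly, leaving out the mixture-like libraries ended 9 of 101 calls against wild type (Msmb, Ogn, Crisp1, Akr1b7, C1qa, C1qb, Krt8, Krt18 and Elf3), 18 of 82 for the mutation and 20 of 96 for finasteride in the mutant. Part of these genes were picked because they kept their class in that fit, so the calls that held are in part built in. With library 2 alone 7 of 101 and 20 of 96 ended. No called difference changed sign in either setting, while 3, 1 and 2 uncalled ones did without the mixture-like libraries and 5 and 8 with library 2 alone. Leaving out untreated wild type library 1 or 3 ended the call of Ogn, Krt8 and Krt18 against wild type, untreated wild type library 2 that of Krt18, treated mutant library 2 or 4 that of Krt8, and treated mutant library 1, 3, 4 or 5 that of Krt18. Krt8 was also not called with no filter or with each library centred on its median. No paired analysis was possible because replicate numbers follow sample order and are shared by no label. The number of libraries and the unknown depth limit what a missing call can show.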
